A study of Homo sapiens with 6 samples.

Results

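The genes described here are 10 transcription factors and cofactors of the erythroid programme: GATA1, TAL1, KLF1, NFE2, LMO2, LDB1, ZFPM1, GFI1B, BCL11A and MYB. They were taken by name, without regard to their values, as every row of the expression table whose RefSeq protein accession belongs to one of them. This gave 41 of the table's 109018 rows, for 10 of the 19053 genes that could be named. The cells were K562, an established human line from chronic myeloid leukemia in blast crisis that carries the BCR-ABL fusion and has erythroid features. All cells carried an shRNA in a lentiviral pSIH-H1-GFP vector, stably expressed, and no uninfected cells were sequenced. The control group (sh-luc, 3 libraries) expressed an shRNA against luciferase, and the knockdown group (sh-IUR-5, 3 libraries) expressed an shRNA against transcript 5 of the long noncoding RNA lncRNA-IUR, which the labels call lncRNA-IIRX. The comparison asks how silencing this RNA changed the leukemic transcriptome. A single shRNA sequence stands behind the knockdown group. The rows of the table are protein accessions, so the level of the silenced RNA itself was not analysed here.

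In red cell precursors GATA1, a zinc finger protein that binds GATA sequences, works together with TAL1, a basic helix-loop-helix protein that pairs with E proteins on E-boxes. LMO2 bridges the DNA-binding proteins and LDB1 joins such complexes across distance, while ZFPM1 (FOG1) binds GATA1 and brings in corepressors. KLF1 binds CACC boxes of the globin and other red cell genes, NFE2 pairs with small MAF proteins, GFI1B represses through the KDM1A and RCOR1 complex, BCL11A represses the fetal globin genes, and MYB keeps progenitors proliferating and declines as they mature.

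The target of the knockdown is shown first, because it defines the comparison. The 21 bases matched the hg38 genome once, at chr11:95232933-95232953 on the plus strand, within an annotated exon of the gene LNCRNA-IUR (GENCODE release 44).
sh-IUR-5 target: gctagtatcaggtttaaatag

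Promoter windows of 300 bases (250 before and 50 after the RefSeq start, GRCh38.p14) were found for 8 of the 10 genes, and 4 are shown: TAL1 and MYB, whose reads rose most, GATA1, whose reads fell, and KLF1, which holds the most GATA sequences in a single window. Capitals mark matches on either strand to AGATAA or TGATAA, or to the same letters ending in G (AGATAG and the like), a form of the sequence that GATA factors bind. The TAL1 window is chr1:47232286-47232585 on the minus strand, MYB chr6:135181058-135181357 on the plus strand, GATA1 chrX:48786340-48786639 on the plus strand and KLF1 chr19:12887152-12887451 on the minus strand.
TAL1 promoter: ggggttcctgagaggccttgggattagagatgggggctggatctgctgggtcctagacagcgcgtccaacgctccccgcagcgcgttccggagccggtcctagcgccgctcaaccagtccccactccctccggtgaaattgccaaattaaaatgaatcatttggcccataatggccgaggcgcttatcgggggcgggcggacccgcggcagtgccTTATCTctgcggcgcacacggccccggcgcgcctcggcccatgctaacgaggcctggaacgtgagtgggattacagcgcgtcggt
MYB promoter: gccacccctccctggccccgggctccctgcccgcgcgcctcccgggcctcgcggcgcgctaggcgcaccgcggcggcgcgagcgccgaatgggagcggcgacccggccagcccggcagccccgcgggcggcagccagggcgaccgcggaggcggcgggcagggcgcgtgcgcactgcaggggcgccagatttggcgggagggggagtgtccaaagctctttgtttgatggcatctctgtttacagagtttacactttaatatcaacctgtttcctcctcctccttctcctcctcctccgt
GATA1 promoter: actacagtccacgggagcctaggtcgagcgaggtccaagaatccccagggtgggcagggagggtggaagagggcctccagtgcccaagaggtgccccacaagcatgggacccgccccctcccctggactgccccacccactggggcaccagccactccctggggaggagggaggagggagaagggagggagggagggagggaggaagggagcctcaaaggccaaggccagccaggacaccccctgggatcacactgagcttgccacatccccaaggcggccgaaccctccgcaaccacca
KLF1 promoter: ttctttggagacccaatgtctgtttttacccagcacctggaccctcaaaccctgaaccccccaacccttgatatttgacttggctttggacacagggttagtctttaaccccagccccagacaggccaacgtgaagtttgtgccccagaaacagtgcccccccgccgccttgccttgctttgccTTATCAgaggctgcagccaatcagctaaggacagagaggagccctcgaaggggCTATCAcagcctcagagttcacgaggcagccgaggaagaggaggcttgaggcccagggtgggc

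Of all 35116 windows of this length, 25.0% held a match to this GATA sequence. The TAL1 window shown held 1 and the other TAL1 window 0. The first base of the match lies 35 bases before the start (position -35). The KLF1 window held 2, at positions -66 and -13. The MYB and GATA1 windows held 0, as did those of LDB1, ZFPM1 and BCL11A, while each of the GFI1B windows held 1. CACC sequences (CCNCNCCC on either strand, overlapping matches counted) occurred 4 times in the GATA1 window, 3 times in that of MYB, 2 times in the TAL1 window shown and 0 times in that of KLF1. They occurred 4 times in the LDB1 window, 9 times in that of ZFPM1, 0 and 1 times in those of GFI1B and up to 6 times in those of BCL11A, against at least 1 in 56.2% of all windows. An E-box (CANNTG) was present in the TAL1 window shown, the KLF1 window, both GFI1B windows and 2 of 5 BCL11A windows, and in 68.7% of all windows, and TGANTCA, the core bound by NFE2 with MAF, was present in the TAL1 window shown, in no other window of the set, and in 7.7% of all. These are matches of letters, and no binding was measured.

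Control libraries held 21023739 to 23320543 reads on accessions and knockdown libraries 24325122 to 31481109. TMM factors, which scale for a change in composition, were 0.914 to 0.929 in sh-luc and 1.058 to 1.128 in sh-IUR-5. Scaled to total reads instead, the median log2 fold change of all features was 0.25 in place of 0.02. Log2 fold changes and tests below are therefore relative to the TMM median, unless another scaling is named. RPKM values are scaled to total reads. Library names put libraries 2 and 3 of each group in one series and library 1 in another. The erythroid marker list was expressed throughout (11 of 11 genes, summed level 25218 to 28354 RPKM in sh-luc and 19776 to 20835 in sh-IUR-5, where RPKM is reads per kilobase in 1000000 reads). Of the other marker lists, 3 of 10 megakaryocyte, 1 of 9 granulocyte and monocyte (LYZ), 0 of 9 lymphocyte and 1 of 9 epithelial and fibroblast genes (EPCAM) reached a mean of 1 RPKM, and MPO, ELANE, MS4A1, PF4 and CDH1 were at 0. The 3 megakaryocyte genes were GP1BB, at 445 RPKM in sh-luc, TUBB1 at 4.28 and ITGA2B at 1.22. Their TMM-scaled log2 fold changes were -0.39 for GP1BB, 0.77 for TUBB1 and -0.66 for ITGA2B. In bulk libraries a lower level can come from fewer cells of a type or from less RNA per cell, which cannot be told apart.

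The genes spanned a wide range of levels in control cells. NFE2 was the highest at 158 ± 15.6 RPKM (SD, n = 3, reads summed over a gene's rows and divided by the length of the row with the most reads), followed by KLF1 at 102 ± 9.93. LDB1 (60.4 ± 4.44), GATA1 (54.8 ± 6.05) and LMO2 (40.8 ± 7.92) came next, and the libraries of neighbours in this trio overlapped. GFI1B (21.6 ± 3.21) and MYB (19.2 ± 0.684) overlapped as well, and ZFPM1 (15.9 ± 2.59) and TAL1 (9.16 ± 0.566) were the lowest of the expressed genes. BCL11A had 1 read in the 3 control libraries together.

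**Figure D1:**
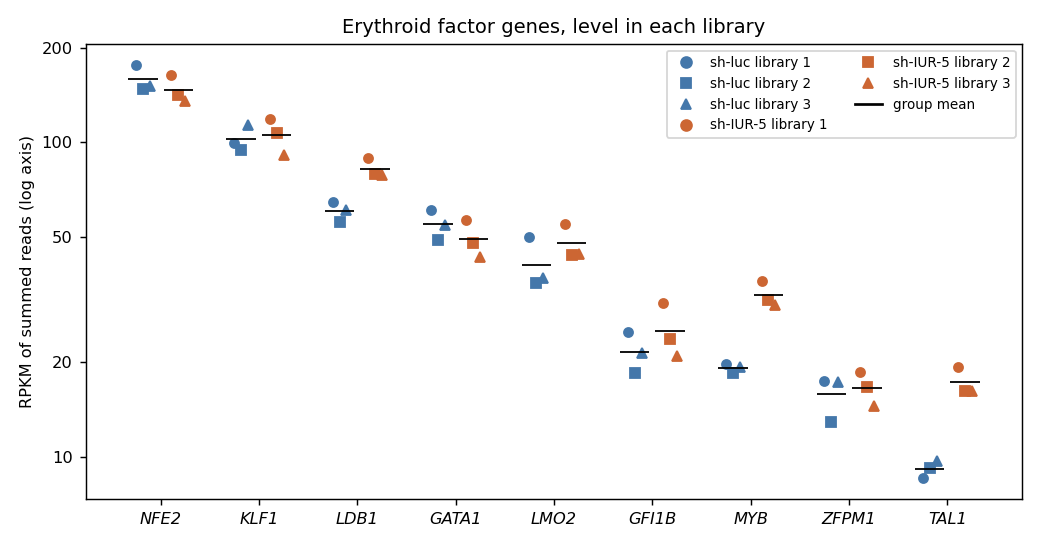
Level of each erythroid factor gene in each library, as RPKM of the summed reads on a log axis, with blue for the 3 sh-luc libraries, orange for the 3 sh-IUR-5 libraries, a marker shape for each library number and a black line for the group mean. NFE2 is highest at 158 RPKM in sh-luc and TAL1 lowest at 9.16, and the TAL1, MYB and LDB1 libraries of sh-IUR-5 all lie above those of sh-luc. BCL11A is left out because 3 of its 6 values are 0. RPKM here is scaled to total reads and not by TMM.

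In sh-IUR-5 cells the order changed at its lower end, on RPKM scaled to total reads. MYB rose to 32.7 ± 3.02 RPKM, above GFI1B at 25.2 ± 5.13, although the libraries of these neighbours still overlapped. TAL1 reached 17.3 ± 1.8 RPKM, beside ZFPM1 at 16.6 ± 2.09 with overlapping libraries. NFE2 (147 ± 15.2), KLF1 (106 ± 13.6) and LDB1 (82.3 ± 5.96) kept the first 3 places, and the libraries of LDB1 no longer overlapped those of GATA1 (49.3 ± 6.85).

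The factors did not move as a group. Of the 9 genes that could be tested, TAL1, MYB and LDB1 were higher and GATA1 and NFE2 lower in sh-IUR-5 (edgeR's quasi-likelihood test on summed reads, Benjamini-Hochberg adjusted p under 0.05), and KLF1, ZFPM1, LMO2 and GFI1B did not pass. The 5 calls among 9 stand beside 48.0% of the 10706 named genes tested, with 23.4% called higher and 24.6% lower, so the share of these genes that passed is close to that of genes at large. Over all 26167 features, including rows with no gene name, 38.8% passed. The 5 called genes were also those whose scaled reads did not overlap between groups, which 56.1% of named genes did not. The median log2 fold change of the 9 genes was -0.02, and that of all named genes was -0.01 with quartiles of -0.28 and 0.29.

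TAL1 showed the largest change of the set. This gene, at chr1:47216290-47232225 on the minus strand of hg38, had 9.24, 10.1 and 10.4 scaled RPM (TMM-scaled reads per 1000000 reads, summed over rows) in sh-luc libraries 1, 2 and 3, against 17.1, 15.3 and 15.2 for sh-IUR-5. Every knockdown library was higher than every control library. It rose by 0.68 ± 0.10 on the log2 scale (± standard error, edgeR adjusted p = 9.57e-05), a 1.60-fold level, and 6.2% of named genes changed further upward. The rise was 0.85 within label series 1 and 0.55 within series 2.

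MYB, at chr6:135181308-135219173 on the plus strand, had 49.0, 46.2 and 47.6 scaled RPM in sh-luc and 73.3, 68.3 and 65.1 in sh-IUR-5. The control libraries lay close together and well below the knockdown libraries. The log2 fold change was 0.53 ± 0.079 (edgeR adjusted p = 9.4e-05), a 1.45-fold level. MYB has the lowest GC content of the set, 47.3% in its longest coding sequence. When each library's trend of reads on GC content and length was removed, with a replicate block, the MYB change was 0.32 (edgeR adjusted p = 0.000131) and that of TAL1, at 70.0% GC, was 0.85.

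LDB1, at chr10:102106489-102120368 on the minus strand, moved less. Its scaled RPM values were 86.0, 75.0 and 80.7 in sh-luc and 97.2, 92.0 and 90.4 in sh-IUR-5, so the groups did not overlap but came close. The log2 fold change was 0.21 ± 0.078 (edgeR adjusted p = 0.0437), and it was 0.45 when scaled to total reads. LDB1 kept its direction in all 17 alternative settings and passed the test in 6 of them. It failed in DESeq2 (adjusted p = 0.0756) and whenever a library other than sh-luc library 1 was left out (edgeR adjusted p from 0.0743 to 0.181).

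GATA1 and NFE2 fell by similar amounts. GATA1, at chrX:48786540-48794311 on the plus strand, had 81.9, 66.4 and 73.1 scaled RPM in sh-luc and 62.5, 56.3 and 50.3 in sh-IUR-5. NFE2, at chr12:54292111-54301015 on the minus strand, had 214, 181 and 183 against 163, 150 and 142. In both genes every knockdown library was below every control library. The log2 fold change was -0.39 ± 0.097 for GATA1 (edgeR adjusted p = 0.0052) and -0.35 ± 0.085 for NFE2 (edgeR adjusted p = 0.00482), levels of 0.764-fold and 0.787-fold. Scaled to total reads, both kept their direction but not the call, with -0.15 (edgeR adjusted p = 0.244) for GATA1 and -0.11 (edgeR adjusted p = 0.318) for NFE2, and on the total-scaled RPKM the libraries of the groups overlapped for both. In each of the 6 fits that left out a library both passed.

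KLF1 and ZFPM1 had lower values in sh-IUR-5 that did not pass the test. KLF1, at chr19:12884422-12887201 on the minus strand, had 117, 113 and 133 scaled RPM in sh-luc and 114, 110 and 93.0 in sh-IUR-5, with a log2 fold change of -0.19 ± 0.091 (edgeR adjusted p = 0.112) that turned to 0.05 when scaled to total reads. ZFPM1, at chr16:88453280-88537031 on the plus strand, had 57.2, 42.6 and 56.1 against 50.0, 47.7 and 41.0, with -0.17 ± 0.11 (edgeR adjusted p = 0.237) that turned to 0.07 under the same scaling. The groups overlapped in both genes. With the label series as a term in the model KLF1 passed with -0.19 (edgeR adjusted p = 0.0173). Without sh-IUR-5 library 1 it passed with -0.25 (edgeR adjusted p = 0.0302), and without sh-luc library 2, the low control library, ZFPM1 passed with -0.29 (edgeR adjusted p = 0.038). With the GC and length trends removed, ZFPM1, the most GC-rich of the set at 73.6%, passed with -0.25 (edgeR adjusted p = 0.00604) and KLF1 stood at -0.05.

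LMO2 and GFI1B lay at almost the same level in both groups. LMO2, at chr11:33858576-33892076 on the minus strand, had 37.0, 26.7 and 27.2 scaled RPM in sh-luc and 33.4, 28.4 and 28.4 in sh-IUR-5, with sh-luc library 1 the highest of all. Its log2 fold change was -0.01 ± 0.12 (edgeR adjusted p = 0.951), and it was 0.23 when scaled to total reads and 0.27 (edgeR adjusted p = 0.00444) with the GC and length trends removed. GFI1B, at chr9:132944000-132991687 on the plus strand, had 26.8, 20.2 and 22.9 against 27.2, 22.2 and 19.5. Its log2 fold change was -0.02 ± 0.12 (edgeR adjusted p = 0.926), or 0.22 when scaled to total reads.

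BCL11A, at chr2:60450520-60554467 on the minus strand, was not detectable as a changed gene at this depth. It has 3 rows, for proteins of 835, 773 and 243 residues that are known as the XL, L and S forms. They held 3 reads in the 6 libraries together, 1 in sh-luc library 1 and 1 each in sh-IUR-5 libraries 2 and 3. Each library was under the floor of 3 reads, so no fold is given. HBG1 and HBG2, the fetal globin genes that BCL11A represses in adult red cells, stood at 8070 and 11557 RPKM in sh-luc and at 6284 and 9148 RPKM in sh-IUR-5. A link between these levels and BCL11A was not tested.

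**Figure D2:**
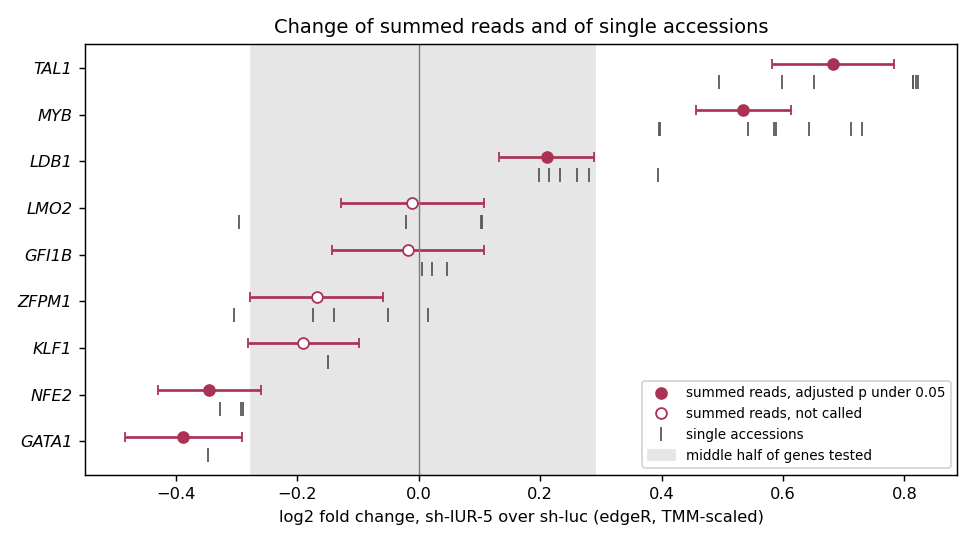
Log2 fold change of sh-IUR-5 over sh-luc for the 9 tested erythroid factor genes, with circles for summed reads (filled where the edgeR adjusted p is under 0.05), bars for 1 standard error, grey ticks for single accessions and a grey band for the central part, between the quartiles, of named genes. TAL1 at 0.68 and MYB at 0.53 lie to the right of the band with all of their accessions, GATA1 at -0.39 and NFE2 at -0.35 lie to its left, and the 4 genes that were not called lie inside it.

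Single accessions that were called had the direction of their gene's sum. The table gives each RefSeq protein its own row. Rows of equal length carried reads that differed by no more than counting noise, with a chi-square per degree of freedom of 0.456 for the 3 NFE2 rows of 373 residues, 0.718 for the 6 TAL1 rows of 331 residues and 0.895 for the 3 LMO2 rows of 158 residues. Rows of 1 gene are therefore not taken as separate measurements of it. Of the 38 rows with a mean of at least 1 RPKM, 16 were called higher and 4 lower, beside 37.3% of the 38204 rows tested (19.2% higher and 18.1% lower). The 16 were all 8 MYB rows, 5 of 7 TAL1 rows and 3 of 6 LDB1 rows, and the 4 were the 3 NFE2 rows and the GATA1 row.

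The row with the most reads was described for each gene. It rose for TAL1 (NP_001274276.1, 331 residues, log2 fold change 0.82 ± 0.19, edgeR adjusted p = 0.00222), for MYB (NP_001123645.1, 761 residues, 0.59 ± 0.11, edgeR adjusted p = 0.000534) and for LDB1 (NP_001308541.1, 409 residues, 0.23 ± 0.090, edgeR adjusted p = 0.049). It fell for GATA1 (NP_002040.1, 413 residues, -0.35 ± 0.095, edgeR adjusted p = 0.00788) and for NFE2 (NP_001248390.1, -0.29 ± 0.087, edgeR adjusted p = 0.0132). The GATA1 row did not pass without sh-IUR-5 library 3 (edgeR adjusted p = 0.0533) or scaled to total reads (0.226). The NFE2 row did not pass without sh-luc library 1 (edgeR adjusted p = 0.083), without sh-IUR-5 library 3 (0.0715), scaled to total reads (0.394) or at a threshold of 0.01. Neither row passed with libraries 2 and 3 summed or with the minimum 5 times as high. The LDB1 row passed in 1 of the 6 fits that left out a library, that without sh-luc library 1. The GATA1 gene has 1 row, and its 2 values differ only because the scaling factors of rows and of sums differ. The LMO2 row with the most reads, NP_005565.2, encodes 227 residues and had 0.10 ± 0.13 (edgeR adjusted p = 0.565), and the 3 shorter rows of 158 residues had -0.30, -0.02 and 0.10, none of them called. For KLF1 (NP_006554.1), ZFPM1 (NP_722520.2) and GFI1B (NP_004179.3) the values were -0.15, 0.01 and 0.05, and none passed.

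Whether a row moved apart from the rest of its gene was tested with diffSpliceDGE in edgeR. None of the 36 member rows in that test passed, beside 1.00% of the 23295 rows tested (234 rows), and 0 of the 36 had an unadjusted p under 0.05. The lowest unadjusted p was 0.0832, for the LMO2 accession NP_001135788.1, which encodes 158 residues. The TAL1, NFE2 and LMO2 rows of equal length did not differ beyond counting noise, so the test could show little for them. For rows of unequal length, how reads shared by isoforms were counted is not given. Isoform use is therefore not resolved here.

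Ratios within a library need no scaling between libraries. All were computed against GATA1. The ratio of GATA2 was listed beforehand, though with earlier results of these data known, and the others were added after the data were seen. Since GATA1 itself was lower, these are ratios and not changes of one gene. TAL1 per GATA1 was 0.141, 0.189 and 0.177 in sh-luc and 0.341, 0.338 and 0.376 in sh-IUR-5, 2.08-fold between the means. MYB per GATA1 was 0.325, 0.378 and 0.354 against 0.637, 0.660 and 0.703, 1.89-fold. GATA2 is the GATA factor of stem and progenitor cells, which GATA1 replaces as red cells mature. GATA2 per GATA1 was 0.103, 0.104 and 0.111 against 0.197, 0.172 and 0.186, 1.74-fold. The ratios of LDB1 (1.52-fold between the means), LMO2 (1.31), GFI1B (1.29), ZFPM1 (1.17) and KLF1 (1.14) were higher in sh-IUR-5 too. None of these 8 ratios overlapped between groups (exact two-sided permutation test, p = 0.1 each, the smallest that 3 libraries against 3 allow). They share the lower GATA1 value. The log2 fold change was -0.39 for GATA1 and -0.01 for the median named gene, so an unchanged gene also has a higher ratio in sh-IUR-5. How many of all genes have a separated ratio was not counted. LMO2, GFI1B, KLF1 and ZFPM1 were not called on their own. NFE2 per GATA1 was 2.90 ± 0.129 (SD, n = 3) and 2.99 ± 0.118 with overlapping libraries (exact permutation p = 0.5).

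The proteins that pair with these factors were called in equal numbers higher and lower, and the balance depended on the model and the scaling. Of 17 dimer partners and complex subunits, 15 were tested, and 3 were higher, 3 lower and 9 not called, beside 23.4% of named genes higher and 24.6% lower. The number called, 6 here, was 10 with the label series as a term and 12 with the GC and length trends removed. No difference from named genes at large is read from it. The median log2 fold change was 0.11. With the label series as a term 7 were higher, beside 6408 of all 26167 features. Scaled to total reads 9 were higher and 2 lower, beside 10152 and 2131 of all features. Without sh-IUR-5 library 1 the number called higher was 2, and without sh-IUR-5 library 3 it was 5. TCF12, an E protein that pairs with TAL1, had 19.3, 19.7 and 17.6 scaled RPM in sh-luc and 36.2, 29.3 and 31.1 in sh-IUR-5 (log2 fold change 0.78 ± 0.098, edgeR adjusted p = 2.56e-05). TCF4, another E protein, had 44.4, 38.7 and 37.6 against 24.1, 24.6 and 25.7 (-0.70 ± 0.088, edgeR adjusted p = 2.48e-05). The 2 E proteins thus moved in opposite directions, with no overlap in either, and TCF3, the third, had 0.11 ± 0.084 (edgeR adjusted p = 0.316).

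LYL1, the closest relative of TAL1, fell by 0.50 ± 0.099 on the log2 scale (edgeR adjusted p = 0.00111). Its change was -0.26 (edgeR adjusted p = 0.0638) when scaled to total reads and -0.30 with the GC and length trends removed. GATA2 had 9.79, 8.06 and 9.42 scaled RPM in sh-luc and 14.3, 11.2 and 10.9 in sh-IUR-5 (0.42 ± 0.12, edgeR adjusted p = 0.0147). It did not pass without sh-luc library 2 (edgeR adjusted p = 0.069) or without sh-IUR-5 library 1 (0.28, edgeR adjusted p = 0.067). RUNX1, a factor of stem cells and megakaryocytes, had -0.06 ± 0.097 (edgeR adjusted p = 0.667), and 0.18 when scaled to total reads. The small MAF partners of NFE2 did not pass, with 0.38 ± 0.16 for MAFG and 0.57 ± 0.24 for MAFK, and these, CBFB (0.50 ± 0.12, higher) and SSBP4 (-0.47 ± 0.085, lower) were chosen after their values were seen.

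Other hematopoietic factors were called only higher. Of 23 genes 17 were tested, of which 8 were higher, 0 lower and 9 not called (edgeR adjusted p under 0.05, 0 lower in DESeq2 as well, and 0 lower at an unadjusted edgeR p under 0.05), beside 23.4% and 24.6% of named genes, and the median log2 fold change was 0.28. BACH1, which competes with NFE2 for small MAF proteins and represses heme and globin genes, had 10.8, 13.6 and 13.3 scaled RPM in sh-luc and 29.7, 25.1 and 23.9 in sh-IUR-5 (log2 fold change 1.07 ± 0.11, edgeR adjusted p = 5.2e-06). IKZF1, the lymphoid and erythroid factor Ikaros, rose by 0.89 ± 0.15 (edgeR adjusted p = 0.000264). KLF13, a relative of KLF1, rose by 0.86 ± 0.23 (edgeR adjusted p = 0.00756) from a low level of 1.17 RPKM. The other 5 were SP1, ELF1, FOXO3, KLF3 and NFE2L1, with 0.36 to 0.77. SPI1 (PU.1), the myeloid factor that antagonises GATA1, had 1.02, 1.49 and 2.0 against 1.32, 1.71 and 1.25 scaled RPM, with overlapping groups (-0.07 ± 0.24, edgeR adjusted p = 0.839, and 0.16 when scaled to total reads). FLI1, ERG and HOXA9 had 0 reads in every library.

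Subunits of the complexes that these factors recruit were all expressed. Of 22 genes tested, 5 were higher, 3 lower and 14 not called, beside 48.0% of named genes called, with a median log2 fold change of 0.08. The number called, 8 here, was 11 with the label series as a term and 13 with the GC and length trends removed. Scaled to total reads, 15 were higher and 1 lower, beside 10152 higher and 2131 lower of all 26167 features under that scaling. RCOR1, the CoREST scaffold used by GFI1B, had 15.7, 15.8 and 15.2 scaled RPM in sh-luc and 23.4, 22.4 and 23.1 in sh-IUR-5 (0.56 ± 0.087, edgeR adjusted p = 0.00014). KDM1A, the demethylase of the same complex, had 0.05 ± 0.072 (edgeR adjusted p = 0.614), and HDAC1 had 0.0034 ± 0.070 (both picked after their values were seen). GATAD2B, a NuRD subunit, rose by 0.43 ± 0.13 (edgeR adjusted p = 0.0187) and did not pass without sh-luc library 2, sh-luc library 3 or sh-IUR-5 library 1 (edgeR adjusted p from 0.0603 to 0.0804).

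Among genes that the erythroid factors are known to drive, the globins were lower and the others were called in both directions. Of 34 target genes 33 were tested, with 12 higher, 14 lower and 7 not called and a median log2 fold change of -0.14, beside 23.4% of named genes higher and 24.6% lower. Scaled to total reads, 14 were higher and 7 lower, with a median of 0.10, beside 10152 higher and 2131 lower of all 26167 features and a median of 0.25. All 7 globin genes tested were lower. They were HBA1, HBA2, HBZ, HBE1, HBG1, HBG2 and HBD, at -0.92 to -0.35, and the reads of HBA1 with HBA2 and of HBG1 with HBG2 cannot be separated with certainty because the genes are nearly identical. With the GC and length trends removed the 7 values were -0.52 to -0.093, and scaled to total reads -0.68 to -0.11. HBD, the lowest in level of the 7, passed in neither (edgeR adjusted p = 0.499 and 0.473), nor in 4 of the 6 fits that left out a library (without sh-luc library 1 or 2 or sh-IUR-5 library 2 or 3, edgeR adjusted p from 0.0618 to 0.116). Among the other 26 genes 12 were higher and 7 lower, and without sh-luc library 2 or sh-IUR-5 library 1 the number higher was 7. The grouping of the globins was made after their values were seen.

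HBZ, the embryonic alpha-like globin, had 387, 301 and 343 scaled RPM in sh-luc and 204, 178 and 164 in sh-IUR-5 (-0.92 ± 0.099, edgeR adjusted p = 5.94e-06, and -0.52 with the GC and length trends removed). AHSP, the chaperone of alpha globin, had 5.38, 3.18 and 3.28 against 2.59, 2.29 and 2.23 (-0.74 ± 0.20, edgeR adjusted p = 0.00782). The first control library stood above the others, and without it the AHSP value was -0.44 (edgeR adjusted p = 0.0674). The globin rows of the list took 1.09 to 1.23% of all reads in sh-luc and 0.85 to 0.90% in sh-IUR-5.

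TFRC, the transferrin receptor (CD71) that brings iron into red cell precursors, rose most of the targets. It had 151, 153 and 143 scaled RPM in sh-luc and 343, 288 and 310 in sh-IUR-5 (log2 fold change 1.08 ± 0.080, edgeR adjusted p = 1.25e-06). ALAS2, the first enzyme of heme synthesis in red cells, had 19.5, 9.60 and 10.2 against 16.1, 11.1 and 9.19 (-0.11 ± 0.23, edgeR adjusted p = 0.739, and 0.13 when scaled to total reads), with library 1 the highest of each group. EPOR, the erythropoietin receptor, had 50.6, 38.9 and 45.7 against 51.1, 35.3 and 33.7 (-0.17 ± 0.14, edgeR adjusted p = 0.352, and 0.07 when scaled to total reads). EPOR passed with -0.39 (edgeR adjusted p = 0.00448) without sh-IUR-5 library 1.

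The changes of the factor genes were followed over 17 alternative settings, of which 6 left out a library. TAL1 and MYB were called higher in all 17, at 0.62 to 0.92 and 0.32 to 0.77, with edgeR or DESeq2 adjusted p up to 0.00287 and 0.00465. GATA1 and NFE2 were called lower in 16 of 17, at -0.47 to -0.15 and -0.40 to -0.11. These counts are for summed reads. In the fit of single rows, the GATA1 and NFE2 rows did not pass with libraries 2 and 3 summed. KLF1 was called in 3 settings, ZFPM1 in 2, LMO2 in 1 and GFI1B in 0, and each of these 4 genes changed sign in at least 1 setting.

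**Figure D3:**
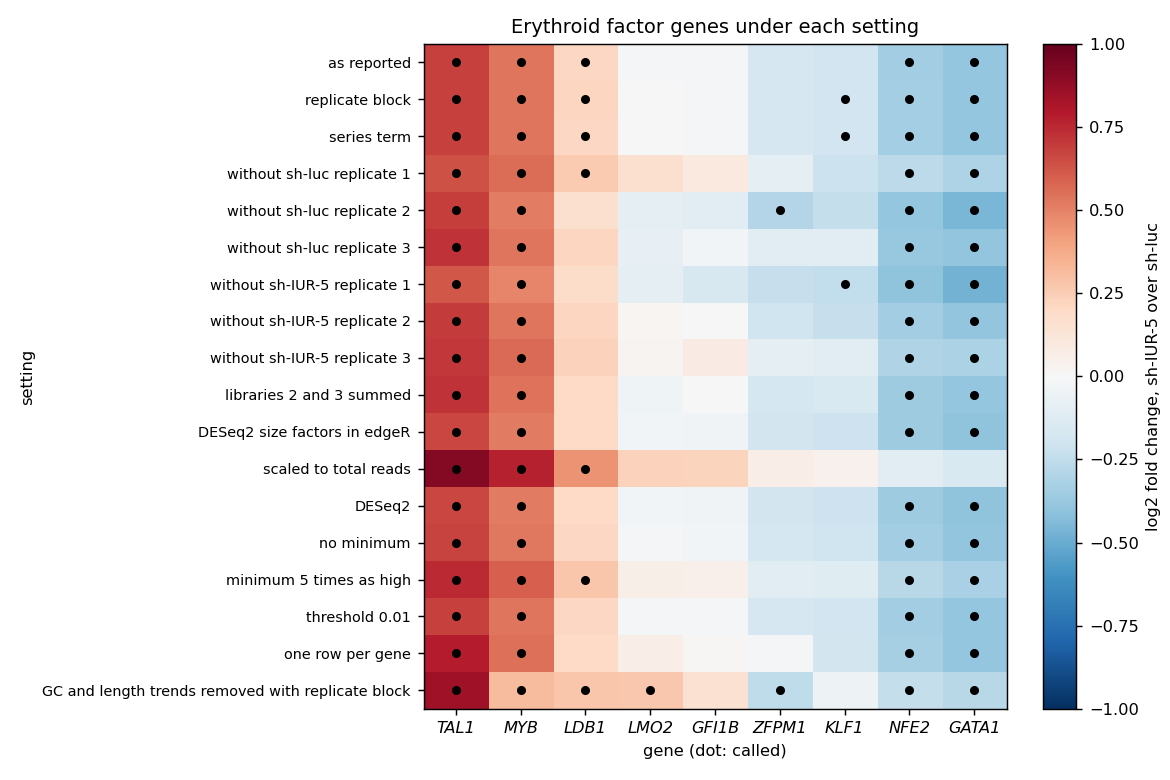
Log2 fold change of each tested erythroid factor gene (columns) under each setting (rows), red for higher and blue for lower in sh-IUR-5, with a dot where the gene was called. TAL1 and MYB are red with a dot in every row, GATA1 and NFE2 are blue and without a dot only when scaled to total reads, and LMO2 and GFI1B are pale with changing sign.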

How the data were processed

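RNA-seq of K562 cells, 3 sh-luc and 3 sh-IUR-5 libraries, was grouped by the titles in the labels. The submitters' processing notes name CASAVA 1.8, Trimmomatic 0.32, Bowtie2 2.1.0, SAMtools 0.1.19 and hg38. How reads that fit several isoforms were counted is not given in the sources used here. The authors deposited read counts per RefSeq protein accession, without normalization, and RPKM values, which equal counts over row length and library total. A deposited table of the authors' own comparison (pooled counts and RPKM, a ratio, its log2 value, p-values and q-values) was not used.

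Accessions were matched to genes with the RefSeq list of GRCh38.p14 (64.7% of rows, 83.9 to 84.8% of reads), so reads on unmatched accessions are not in the sums. Row lengths are coding lengths (99.8% are multiples of 3). Counts summed per gene (a mean of at least 1 CPM, counts in 1000000) and single rows (at least 1 RPKM) were tested with edgeR 4.0.16 in R 4.3.3, TMM scaling, quasi-likelihood, two-sided, Benjamini-Hochberg over all features, threshold 0.05. The coefficient of variation between libraries was 8.35% for sums. GC and length trends were removed with mgcv 1.9.3, and DESeq2 1.42.0 was an alternative. The scripts were tested on simulated counts.

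The genes, lists and tests were chosen with earlier results of these data known. Named were all 10 factor genes, the row with the most reads of each, the 3 genes with the largest change among those called in each other list, and GATA2, RUNX1, SPI1, TFRC, ALAS2 and EPOR, and the results of some listed genes are not reported here. The labels describe 3 independent experiments. Libraries 2 and 3 of each group share a series name. Sequences are from RefSeq windows, the study's list of shRNA targets and hg38. Floors cover counting error only.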

Additional observations from a re-analysis of the deposited data

How the results depend on the processing

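The limits are the scaling, the 3 libraries per group and, for BCL11A, depth. TAL1, MYB, GATA1, NFE2 and LDB1 kept their direction in every alternative run. LDB1 lost its call with libraries 2 and 3 summed (0.20), DESeq2's size factors in edgeR (0.20), DESeq2 (0.20), no minimum (0.20), a threshold of 0.01 (0.21) and one row per gene (0.20). Scaled to total reads, GATA1 (-0.15) and NFE2 (-0.11) lost the call, and KLF1 (0.046), ZFPM1 (0.067), LMO2 (0.23) and GFI1B (0.22) changed sign, as did the KLF1 row (0.046), ALAS2 (0.13), EPOR (0.075), RUNX1 (0.18) and SPI1 (0.16). With the minimum 5 times as high LMO2 (0.056), GFI1B (0.050) and RUNX1 (0.0085) changed sign, and with one row per gene LMO2 (0.067) and GFI1B (0.0094) did. With no minimum the leading ZFPM1 row (-0.042) and GFI1B row (-0.012) changed sign. With the GC and length trends removed and a replicate block, LMO2 (0.27), GFI1B (0.16), RUNX1 (0.043) and SPI1 (0.18) changed sign and ZFPM1 gained a call (-0.25). The cause was not tested. KLF1 gained a call with the term for the label series (-0.19). Within label series 1 the values of TAL1 (0.85) and KLF1 (-0.034), and within series 2 that of TAL1 (0.55), moved by more than the spread between libraries.

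With a library left out, LDB1 ranged from 0.16 to 0.26, KLF1 from -0.25 to -0.11, ZFPM1 from -0.29 to -0.094, LMO2 from -0.095 to 0.16, GFI1B from -0.16 to 0.098, the leading rows of LMO2 from -0.016 to 0.30, of ZFPM1 from -0.11 to 0.15 and of GFI1B from -0.14 to 0.15, ALAS2 from -0.38 to 0.31, SPI1 from -0.30 to 0.19, and the ratio of GATA2 to GATA1 between group means from 1.69 to 1.801 (exact permutation p = 0.1, the smallest allowed).

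Of all features 10157 were called (5088 higher, 5069 lower), and 12283 (10152 higher, 2131 lower) when scaled to total reads, 6429 (3095 and 3334) at a threshold of 0.01, 5890 of 10587 (2682 and 3208) with the trends removed, and 3363 lower with the higher minimum. Of single rows, 14259 were called (7335 and 6924), against 13203 higher and 3281 lower scaled to total reads, 7357 (3840 and 3517) with the higher minimum and 9099 (4578 and 4521) at 0.01. Row usage gave 234 rows, or 151 to 210 with a library left out, and 0 factor rows in every setting run. Of 20 factor rows called, the number was 12 with libraries 2 and 3 summed, where only MYB and TAL1 rows passed and the GATA1, NFE2 and LDB1 rows did not, 6 with the higher minimum (LDB1 rows) and 13 at 0.01.

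Dimer partners called higher numbered 7 with the label series as a term, 9 scaled to total reads, 6 with no minimum, 5 with the higher minimum and 9 with the trends removed. Of all features, 6408 of 26167 were called higher with the series term and 10152 of 26167 scaled to total reads. The same count was 5455 of 45358 with no minimum, 3756 of 13838 with the higher minimum and 2682 of 10587 with the trends removed. Other hematopoietic factors called higher numbered 13 scaled to total reads. Complex subunits numbered 8 higher with the series term, 3 higher with libraries 2 and 3 summed, 3 higher at 0.01, 15 higher and 1 lower scaled to total reads, and 7 lower with the trends removed. Target genes numbered 7 to 11 higher with a library left out, 7 higher with libraries 2 and 3 summed or at 0.01, and 7 lower scaled to total reads.

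For the rows with the most reads and the genes named from other lists, 359 values kept direction and side of the threshold, 34 lost the call, 3 gained it and 20 changed sign.

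Deviations of same-numbered libraries from their group means correlated by 0.35, 0.11 and -0.01 for numbers 1, 2 and 3, so the numbers were not taken to pair the libraries. By label series, sh-luc 2 with sh-IUR-5 3 gave 0.265 and sh-luc 3 with sh-IUR-5 2 gave 0.113. Correlations between the series were -0.299 to -0.081. The reported fit has no term for the series, and with that term 12777 features were called. With the replicate number as a block KLF1 gained a call (-0.19, edgeR adjusted p = 0.0378), dimer partners called higher numbered 7, and 12046 features were called.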
